A study of Mus musculus with 9 samples.

Results

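Acp1 encodes the low molecular weight protein tyrosine phosphatase, and its RNA was followed here in the mouse myoblast line C2C12, an established cell line, after knockdown of the RNA-binding proteins Cugbp1 or Mbnl1. Its probe sets were those to which the platform annotation gave Acp1 as the only symbol, which held for 30 of the 1195555 probe sets of the exon array. No probe set carried Acp1 together with another symbol. The gene was chosen by its difference from control after both siRNAs, so its differences from control are given as a description, without a test. Total RNA was taken 48 h after transfection of an siRNA against Cugbp1 (3 arrays), an siRNA against Mbnl1 (3 arrays) or a control siRNA (3 arrays), and 100 ng of RNA per array was labelled. All 9 samples came from the 1 cell line grown with fetal bovine serum. The labels number the replicates but do not say that they came from separate cultures, so the spread between arrays may be technical.

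Acp1 is a small cytosolic enzyme that removes phosphate from tyrosine residues and belongs to a class of its own, unrelated in fold to the large family of classical tyrosine phosphatases. Receptor tyrosine kinases such as the PDGF, insulin and Eph receptors are among its reported substrates, and Src family kinases phosphorylate it in turn. In mammals its pre-mRNA is spliced into isoforms that differ in an internal exon. Cugbp1, whose current symbol is Celf1, and Mbnl1 are regulators of splicing and RNA stability in muscle.

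Acp1 lies on the minus strand of chromosome 12, head to head with Sh3yl1, which encodes an SH3-domain protein that binds phosphoinositides. The bases between both annotated genes are shown because the annotated starts of both genes flank them. They occupy chr12:30911620-30911668 (RefSeq, GRCm38.p6), are read 5′ to 3′ on the minus strand, and are intergenic. Capitals mark CG pairs.
Acp1-Sh3yl1 intergenic: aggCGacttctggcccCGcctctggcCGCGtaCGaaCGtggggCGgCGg
These 49 bases held 8 CG pairs and were 75.5% G or C. The RefSeq window from 250 bases before to 50 bases after the start of Acp1 was 67.0% G or C, against a median of 52.7% over 32851 mouse promoter windows of the same length. It held 29 CG pairs, against a median of 7, and 12.9% of all windows held at least as many. Letters searched on both strands were found in the window for the NRF1 motif (in 0.971% of all windows), GGGCGG (an SP1 motif, in 35.7%) and CCAAT (in 37.4%). GGGCGG also lies in the intergenic bases printed above. CCGGAAG (an ETS motif, in 8.86% of windows), TATAAA (in 13.6%) and TTTGGCGC (an E2F motif, in 0.514%) were not found in these letters.

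The Acp1 gene value was about 1 log2 unit higher on every siRNA array than on every control array. This value was the median polish of the 22 Acp1 probe sets that passed a filter on weak signals (a mean over 9 arrays equal to an intensity of at least 128). It was 9.28, 9.27 and 9.28 on the Cugbp1 siRNA arrays, 9.34, 9.31 and 9.32 on the Mbnl1 siRNA arrays, and 8.26, 8.26 and 8.30 on the control arrays (log2 intensity). The 6 siRNA arrays thus lay above the 3 controls with no overlap, and within each group the arrays were nearly level. In linear intensity these were 622, 619 and 623 after Cugbp1 siRNA, 648, 637 and 637 after Mbnl1 siRNA, and 306, 306 and 316 after control siRNA.

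**Figure D1:**
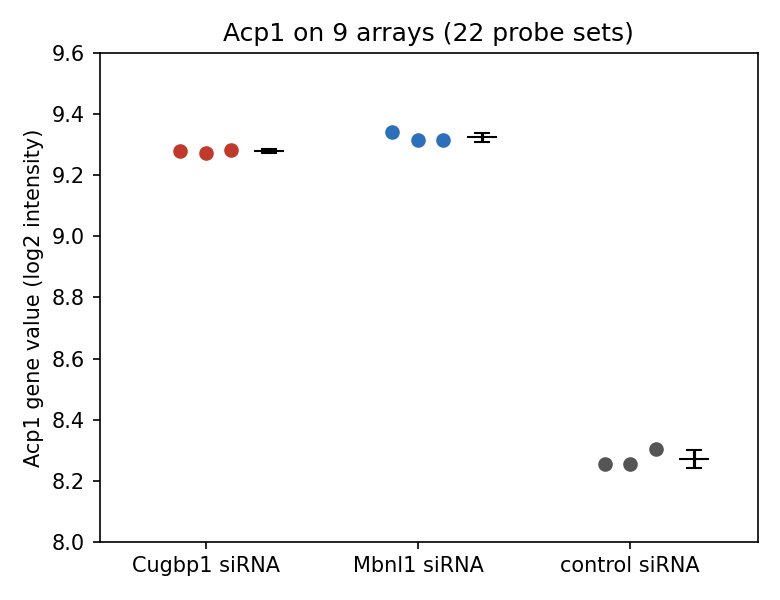
Acp1 gene value (log2 intensity, vertical axis from 8.0 to 9.6) on each of the 9 arrays by group, where each point is an array and the black bar is the mean ± SD (n = 3). The Cugbp1 siRNA arrays lie at 9.27 to 9.28, the Mbnl1 siRNA arrays at 9.31 to 9.34 and the control arrays at 8.26 to 8.30.

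The mean was 9.28 ± 0.01 after Cugbp1 siRNA and 8.27 ± 0.03 after control siRNA (SD, n = 3 each), a difference of 1.01 with a standard error of 0.04 and a 95% interval of 0.92 to 1.09. On a linear scale this was 2.01-fold (1.90 to 2.13). After Mbnl1 siRNA the mean was 9.32 ± 0.01 (SD, n = 3), a difference from the same controls of 1.05 (standard error 0.04, interval 0.97 to 1.14), or 2.07-fold (1.96 to 2.20). Both differences use the same 3 control arrays and limma's moderated standard error, which draws on the spread of all genes. In these bulk samples, fewer cells of a type and less RNA per cell cannot be told apart.

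Few genes were higher than control by as much. Among the 12646 genes with a gene value, Acp1 ranked 6 after Cugbp1 siRNA and 18 after Mbnl1 siRNA, counted from the largest increase. Genes that fell stand at the other end of this ranking, whatever the size of their fall. Only 0.0554% of genes were at least 2-fold higher after Cugbp1 siRNA, and 0.158% after Mbnl1 siRNA. Separation of the arrays was by contrast common: all 6 siRNA arrays lay above all 3 controls for 24% of genes. The median log2 difference over all genes was 0.05 after Cugbp1 siRNA and 0.04 after Mbnl1 siRNA.

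In order of level, Acp1 was highest after Mbnl1 siRNA, next after Cugbp1 siRNA and lowest after control siRNA. Cugbp1 siRNA arrays were lower than Mbnl1 siRNA arrays by 0.04 on average, with a 95% interval of −0.13 to 0.04 for Cugbp1 minus Mbnl1 siRNA and a ratio of 0.970. The interval takes in 0, and it leaves room for a ratio of 0.915 to 1.03. It rests on limma's moderated standard error, which draws on the spread of all genes. The arrays of Acp1 itself varied less (pooled SD 0.0187), so moderation widened the interval. An interval from the spread of Acp1 alone was not computed, so the inclusion of 0 depends on the moderation used. The highest Cugbp1 siRNA array (9.28) lay just below the lowest Mbnl1 siRNA array (9.31), and such a separation in either direction was seen for 29.5% of genes.

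Each siRNA lowered its own target. Celf1, the gene of Cugbp1, was at 8.60, 8.60 and 8.81 on the Cugbp1 siRNA arrays and at 10.11, 10.14 and 10.14 on the control arrays, and fell by 1.46 (limma adjusted p = 9.01e-07). On the Mbnl1 siRNA arrays Celf1 was at 9.99, 10.10 and 10.08, a difference from control of −0.07 that was not called (adjusted p = 0.345). These arrays nevertheless all lay just below the controls. Mbnl1 was at 10.05, 10.10 and 10.18 on the Mbnl1 siRNA arrays and at 11.47, 11.46 and 11.44 on the control arrays, and fell by 1.35 (adjusted p = 3.97e-07). On the Cugbp1 siRNA arrays Mbnl1 was at 11.43, 11.51 and 11.56 and was not called against control (0.05, adjusted p = 0.471). Acp1 differed from control by 1.01 after Cugbp1 siRNA and 1.05 after Mbnl1 siRNA, and the part of either target in this was not tested.

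The siRNA arrays also stood apart from the controls as a whole. Over all gene values, 54.2% of the variance lay on a first principal component that placed the 6 siRNA arrays at −11.2 to −2.16 and the 3 controls at 14.5 to 16.7. Median probe set intensity was 42.3 to 42.8 after Cugbp1 siRNA, 42.5 to 42.9 after Mbnl1 siRNA and 43.6 to 43.8 after control siRNA. The part of this general shift in the Acp1 result was not tested. With the gene values of each array centred on their median, Acp1 differed from control by 0.93 after Cugbp1 siRNA and 0.98 after Mbnl1 siRNA. Over all genes, 26% were called higher and 12.7% lower after Cugbp1 siRNA, and 26.9% higher and 14.6% lower after Mbnl1 siRNA (limma, adjusted p under 0.05). Of 8 myoblast markers, all 8 were measured above the filter: 3 rose and 0 fell after Cugbp1 siRNA, and 1 rose and 1 fell after Mbnl1 siRNA. Of 10 markers of other cell types (blood, endothelial, epithelial, fat and neural), 6 were measured above the filter: 0 rose and 5 fell after Cugbp1 siRNA, and 0 rose and 4 fell after Mbnl1 siRNA, with a median difference of −0.29 for either siRNA. The summed intensity of these 6 was 1369 to 1520 after Cugbp1 siRNA, 1448 to 1555 after Mbnl1 siRNA and 1727 to 1814 after control siRNA, so the siRNA arrays lay below the controls with no overlap. That of the 8 myoblast markers was 14728 to 15115 after Cugbp1 siRNA, 13888 to 15254 after Mbnl1 siRNA and 14096 to 14359 after control siRNA. The endothelial, epithelial, fat and neuronal markers Cdh5, Epcam, Adipoq and Rbfox3 had too few probe sets above the filter for a gene value. Their part in the Acp1 result was not tested.

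Most of the probe sets along Acp1 shared the difference. Of all 30, 22 were higher after either siRNA with no overlap of arrays, where 17.1% of all named probe sets were after Cugbp1 siRNA and 20.9% after Mbnl1 siRNA. A difference of at least 2-fold was reached by 13 of 30 after Cugbp1 siRNA (1.26% of all named probe sets) and by 12 of 30 after Mbnl1 siRNA (2.18%). All 6 siRNA arrays lay above all 3 controls for 21 of the 30 (10.8% of all named probe sets). Of the 22 probe sets in the gene value, 6 (4701745, 5407871, 5166382, 5296877, 5513220 and 4369781) had a control mean below the filter and passed only through their siRNA arrays. With all 30 probe sets in the gene value, the difference from control was 0.86 after Cugbp1 siRNA and 0.94 after Mbnl1 siRNA. The values of the probe sets chose the gene, so these counts describe it and support nothing further.

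**Figure D2:**
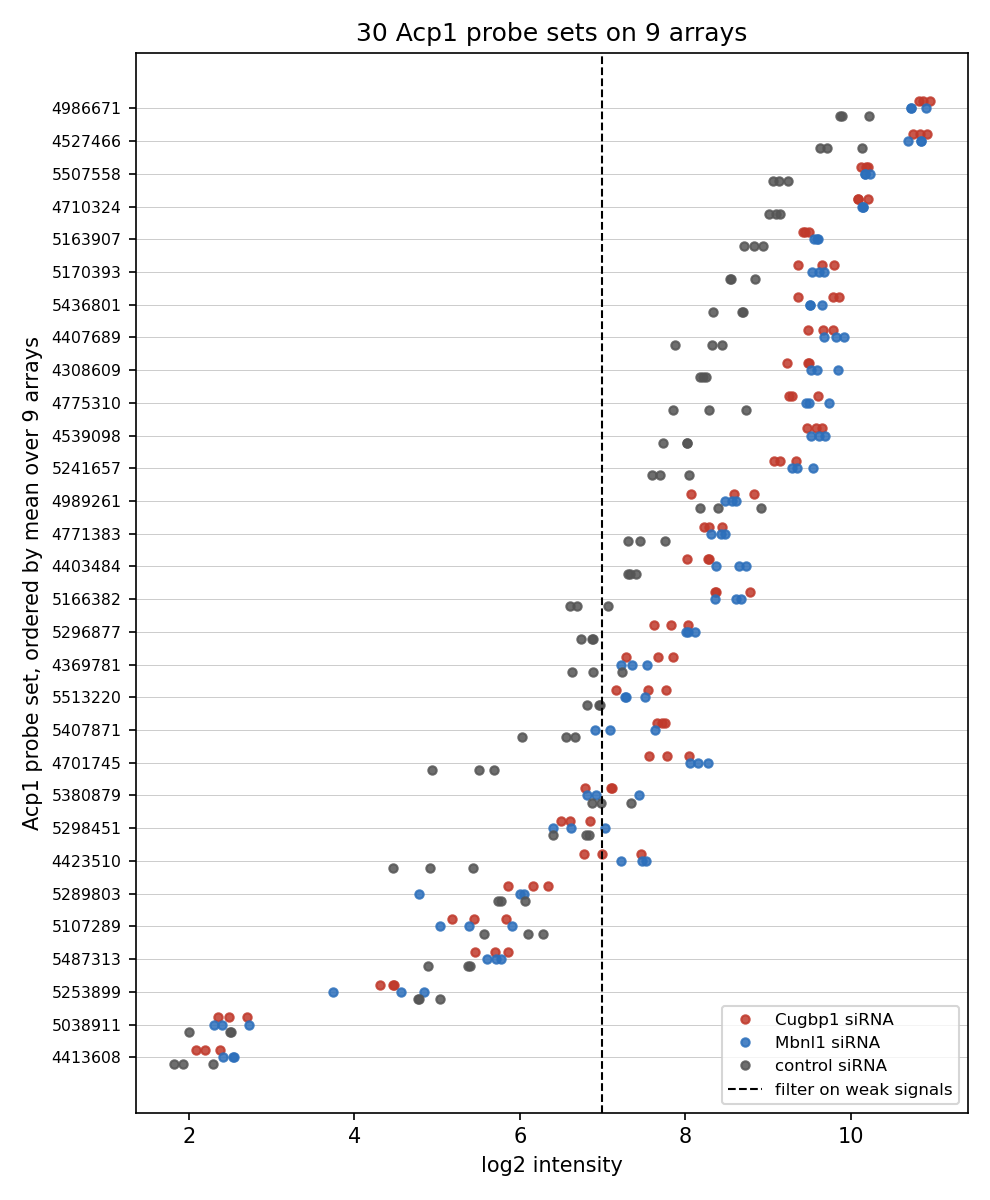
Log2 intensity (horizontal axis) of each of the 30 Acp1 probe sets on the 9 arrays, ordered by mean, with 3 points per group and a dashed line at the filter on weak signals. For 21 of the 30 probe sets all 6 siRNA arrays lie to the right of all 3 control arrays.

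The 4 brightest probe sets differed by about as much as the gene value. Here and in what follows, a pair of differences stands for Cugbp1 siRNA minus control and Mbnl1 siRNA minus control. Probe set 4986671 was at 10.95, 10.87 and 10.82 after Cugbp1 siRNA, 10.73, 10.91 and 10.73 after Mbnl1 siRNA, and 9.87, 10.21 and 9.89 after control siRNA, with differences of 0.89 and 0.80 for the Cugbp1 and Mbnl1 siRNAs. For probe set 4527466 the differences were 1.01 and 0.97, for 5507558 they were 1.03 and 1.05, and for 4710324 they were 1.05 and 1.06. All 4 had siRNA arrays clear of the controls.

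Probe set 4701745 differed most. It was at 7.56, 7.78 and 8.04 after Cugbp1 siRNA, 8.15, 8.06 and 8.27 after Mbnl1 siRNA, and 5.51, 4.94 and 5.68 after control siRNA, differences of 2.42 and 2.78. Its control values lie below the filter. A weak probe set, 4423510, behaved in the same way at 6.99, 6.78 and 7.47 after Cugbp1 siRNA, 7.52, 7.22 and 7.48 after Mbnl1 siRNA, and 5.44, 4.91 and 4.46 after control siRNA. Its differences of 2.14 and 2.47 exceed 4-fold, which 0.058% of weak named probe sets reached after Cugbp1 siRNA and 0.148% after Mbnl1 siRNA. Relative to the gene value on the same array, 4701745 was higher than in control by 1.41 after Cugbp1 siRNA and 1.73 after Mbnl1 siRNA, and 4423510 by 1.13 and 1.42.

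Several probe sets lay between 1.19 and 1.76 after both siRNAs. Probe set 4539098 was at 9.46, 9.66 and 9.57 after Cugbp1 siRNA, 9.62, 9.51 and 9.69 after Mbnl1 siRNA, and 8.02, 7.73 and 8.02 after control siRNA (differences of 1.64 and 1.68). Its control signal was well above the filter, so a difference above the gene value was not confined to weak probe sets. Probe sets 5166382 (1.71 and 1.76), 4407689 (1.43 and 1.59), 5241657 (1.41 and 1.61) and 4308609 (1.19 and 1.43) also exceeded the gene value after both siRNAs. At the lower end, 5163907 (0.64 and 0.76), 4369781 (0.69 and 0.45) and 5513220 (0.58 and 0.45) lay below it, and for 4369781 the Mbnl1 siRNA and control arrays overlapped. The other members above the filter were 5170393 (0.96 and 0.96), 5436801 (1.10 and 0.99), 4775310 (1.09 and 1.27), 4771383 (0.82 and 0.91), 5296877 (1.00 and 1.22), 5407871 (1.29 and 0.79) and 4403484 (0.85 and 1.24).

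Both remaining probe sets above the filter were level. Probe set 4989261 was at 8.06, 8.83 and 8.59 after Cugbp1 siRNA, 8.61, 8.47 and 8.56 after Mbnl1 siRNA, and 8.92, 8.18 and 8.39 after control siRNA, with differences of −0.00 and 0.05. Probe set 5380879 was at 7.10, 6.79 and 7.12 after Cugbp1 siRNA, 6.81, 6.92 and 7.44 after Mbnl1 siRNA, and 6.98, 7.35 and 6.88 after control siRNA (differences of −0.07 and −0.01). Their groups overlapped, and relative to the gene value they were lower by about as much as the gene value was higher, at −1.01 after Cugbp1 siRNA for 4989261 and −1.07 for 5380879. Probe set 5380879 lay just inside the filter (mean 7.04), and 5298451, which lay just outside it (mean 6.67), was also level at −0.03 and 0.00.

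Among the other weak probe sets, 5487313 differed by 0.45 and 0.47 with no overlap of arrays, at 5.86, 5.70 and 5.46 after Cugbp1 siRNA, 5.72, 5.77 and 5.60 after Mbnl1 siRNA, and 4.89, 5.40 and 5.37 after control siRNA. Probe sets 5107289 (−0.50 and −0.54) and 5253899 (−0.44 and −0.48) were lower after both siRNAs, with overlapping arrays for 5107289 after either siRNA and for 5253899 after Mbnl1 siRNA. Probe set 5289803 differed by 0.26 and −0.24, with overlap after either siRNA. The faintest members, 5038911 (0.18 and 0.14) and 4413608 (0.20 and 0.48), had means of 2.44 and 2.25.

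**Figure D3:**
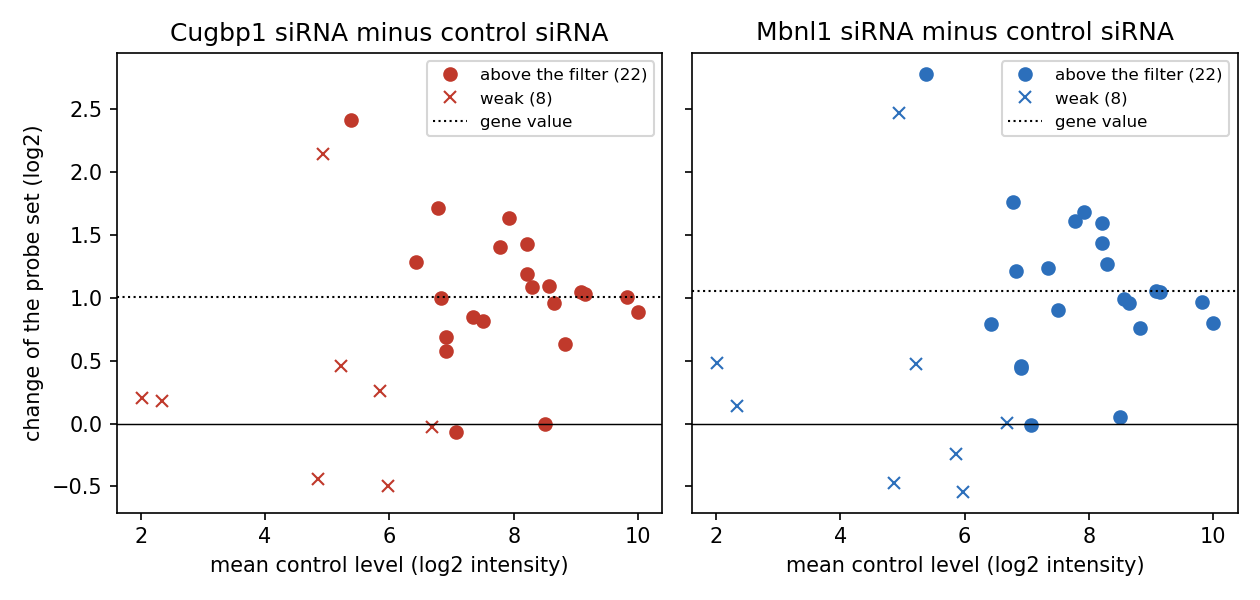
Log2 difference from control siRNA (vertical axis) of each Acp1 probe set against its mean control level (log2 intensity, horizontal axis), with Cugbp1 siRNA on the left and Mbnl1 siRNA on the right. Filled points are the 22 probe sets above the filter, crosses the 8 weak ones, and the dotted line the gene value (1.01 and 1.05).

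Leaving out each of the 22 in turn gave differences from control of 0.98 to 1.03 after Cugbp1 siRNA and of 1.03 to 1.08 after Mbnl1 siRNA. A median polish of 22 probe sets moves little when any single one is left out, so this range is a description only. Across the 22 probe sets the difference had a Pearson correlation with the control level of −0.30 for Cugbp1 siRNA and −0.29 for Mbnl1 siRNA, given as a description since the probe sets share arrays and transcripts. The files do not place the probe sets on exons. RefSeq lists an Acp1 pseudogene, Gm1866, on chromosome X, and whether any of the 30 also binds its transcripts was not tested.

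The use of Acp1 exons after one siRNA against the other was not part of how the gene was chosen and could be tested. Each probe set was taken relative to the gene value on the same array and compared between Cugbp1 siRNA and Mbnl1 siRNA with limma over 158713 probe sets. None of the 22 Acp1 probe sets was called (0 of 22, lowest adjusted p = 0.687), where 0.0277% of all probe sets were, and 2 of 22 had an unadjusted p under 0.05. These were 4403484, lower after Cugbp1 than after Mbnl1 siRNA by 0.35 relative to the gene value (Cugbp1 minus Mbnl1 −0.35, interval −0.62 to −0.07), and 5407871, higher after Cugbp1 siRNA by 0.54 (interval 0.10 to 0.98). The diffSplice method also called 0, with 3 at an unadjusted p under 0.05 and a lowest adjusted p of 0.108. In plain level, 24 of the 30 probe sets differed by less than 1.2-fold between the siRNAs, over a range of −0.39 to 0.50.

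The neighbouring genes that had a gene value did not share the Acp1 difference. Sh3yl1, across the intergenic bases printed above, had 15 probe sets, of which 2 passed the filter, too few for a gene value. Its probe sets had a median difference of 0.20 after Cugbp1 siRNA (range −0.49 to 0.50) and 0.29 after Mbnl1 siRNA (range −0.31 to 0.52). Its probe set 4320240 was at 7.73, 7.47 and 7.45 after Cugbp1 siRNA, 7.53, 7.24 and 7.83 after Mbnl1 siRNA, and 7.40, 6.97 and 7.38 after control siRNA. Its other probe set above the filter, 5054740, was at 7.86, 7.33 and 7.16 after Cugbp1 siRNA, 7.67, 6.65 and 7.34 after Mbnl1 siRNA, and 7.27, 6.97 and 7.39 after control siRNA. Probe set 4320240 differed by 0.30 and 0.29. Its Cugbp1 siRNA arrays lay above the controls with no overlap, as for 17.1% of all named probe sets, while its Mbnl1 siRNA and control arrays overlapped. For 5054740 both siRNAs overlapped with control.

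Of the 10 annotated genes on either side, 3 had a gene value. Sntg2, which encodes a syntrophin of the dystrophin-associated complex, was at 8.03, 8.09 and 7.86 after Cugbp1 siRNA, 7.91, 7.75 and 8.01 after Mbnl1 siRNA, and 8.42, 8.20 and 8.38 after control siRNA. It fell by 0.34 after Cugbp1 siRNA (adjusted p = 0.0126) and by 0.44 after Mbnl1 siRNA (adjusted p = 0.00294), opposite in direction to Acp1, and in that comparison 12.7% and 14.6% of genes were called lower. The Cugbp1 siRNA call was lost without Cugbp1 siRNA replicate 3, without control replicate 3 and without the filter on weak probe sets, where the difference was −0.15. Tmem18, a transmembrane protein gene, differed by −0.03 (adjusted p = 0.677) after Cugbp1 siRNA and fell by 0.16 after Mbnl1 siRNA (adjusted p = 0.0348), a call kept under 5 of 18 alternative settings. The pseudogene Gm6992 differed by −0.09 and −0.04 and was not called (adjusted p = 0.290 and 0.632). Fam110c had 5 probe sets, all weak, and Alkal2, the annotated gene next to Acp1 on the other side from Sh3yl1, had 0 named probe sets.

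The 8 genes nearest to Acp1 in pattern were found as the smallest Euclidean distance over the 9 arrays, after centring each gene on its own mean. Xrn1, the cytoplasmic 5′ to 3′ exoribonuclease of mRNA decay, was the nearest (distance 0.324, Pearson r 0.989). It was at 8.22, 8.26 and 8.41 after Cugbp1 siRNA, 8.33, 8.31 and 8.27 after Mbnl1 siRNA, and 7.51, 7.47 and 7.41 after control siRNA, differences of 0.84 and 0.84. Gulp1, an adaptor in the engulfment of dying cells, followed (distance 0.385, r 0.972), with differences of 0.77 and 0.93, and Gpm6b, a proteolipid family membrane protein (distance 0.386, r 0.986), with 0.76 and 0.83. None of these 3 reached the Acp1 difference for either siRNA.

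Ermp1, an endoplasmic reticulum metallopeptidase, stood at a distance of 0.397 (r 0.985, differences of 0.71 and 0.86), and Dnal1, an axonemal dynein light chain, at 0.435 (r 0.962, differences of 0.77 and 0.90). Rap2c, a small GTPase of the Ras family, stood at 0.444 (r 0.976, differences of 0.78 and 0.76). Nmnat2, which makes NAD in the cytosol, stood at 0.459 (r 0.955). Its mean was 9.23 ± 0.02 after Cugbp1 siRNA, 8.95 ± 0.05 after Mbnl1 siRNA and 8.04 ± 0.12 after control siRNA (SD, n = 3 each), a ratio to control of 2.29 and 1.88. It alone of the 8 was called between the siRNAs, higher after Cugbp1 than after Mbnl1 siRNA by 0.28 (adjusted p = 0.0156), where 9.34% of all genes were called in either direction. Pdgfrl, a PDGF receptor-like secreted protein, stood at 0.467 (r 0.973, differences of 0.71 and 0.79), and its control mean of 6.84 lies below the filter. Being chosen for their likeness, these genes are a description. A correlation above 0.9 with Acp1 was shared by 966 genes (7.64% of 12645), over 9 arrays that fall into siRNA and control arrays.

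**Figure D4:**
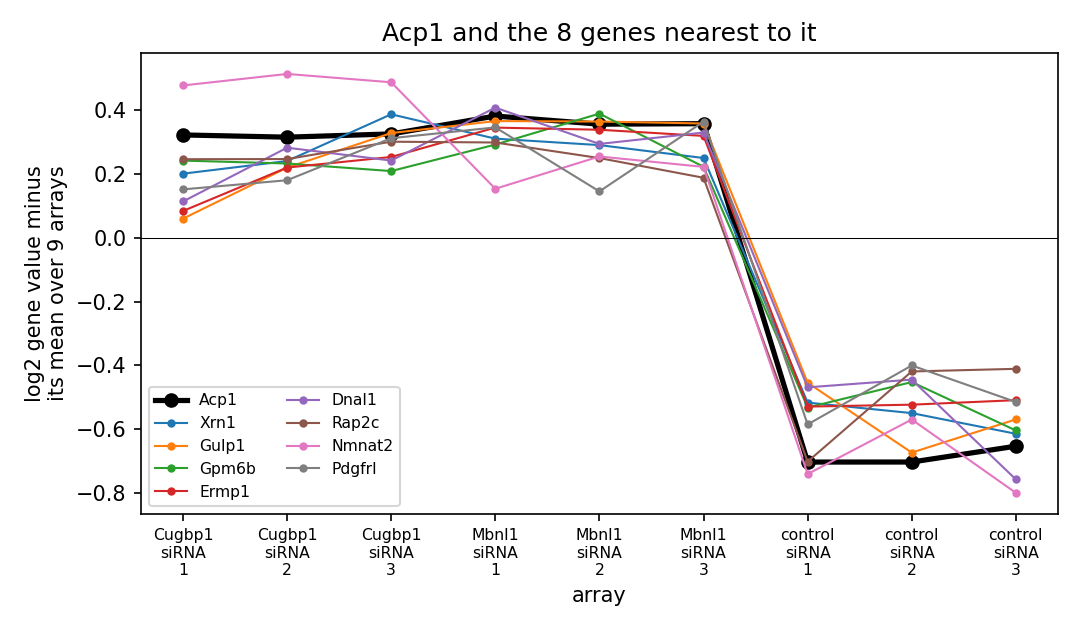
Log2 gene value minus its mean over the 9 arrays (vertical axis) for Acp1 (thick black line) and the 8 genes nearest to it, on each array (horizontal axis; the lines only join a gene's values). All 9 genes lie above their mean on the 6 siRNA arrays and below it on the 3 control arrays, and Nmnat2 is higher on the Cugbp1 siRNA arrays than on the Mbnl1 siRNA arrays.

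The other tyrosine phosphatase genes included both higher and lower calls after either siRNA. Of 81 genes listed from the other classes, 73 had a gene value: 24 rose and 11 fell after Cugbp1 siRNA, and 22 rose and 13 fell after Mbnl1 siRNA. The balance of directions depended on the scaling, here as over all genes, and is given for each class below. Over all genes, 26% were called higher and 12.7% lower after Cugbp1 siRNA, and 26.9% higher and 14.6% lower after Mbnl1 siRNA. The listed genes spanned −0.50 to 0.48 and −0.52 to 0.54, and 0 of 73 was at least 2-fold higher after either siRNA, where 0.0554% of all genes were after Cugbp1 siRNA and 0.158% after Mbnl1 siRNA, so this count does not set the class apart. Their median differences were 0.03 and 0.03, against 0.05 and 0.04 over all genes. Calls in the text are those of limma at an adjusted p under 0.05 over all genes.

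**Figure D5:**
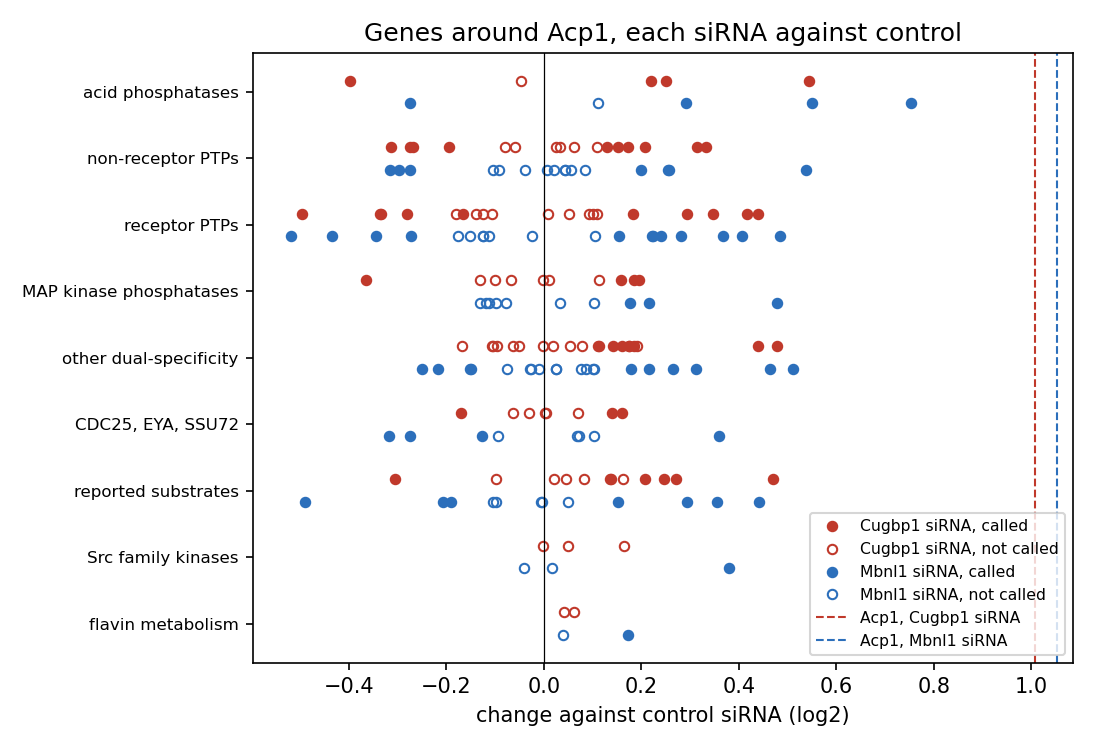
Log2 difference from control siRNA (horizontal axis) of each gene in 9 lists of enzymes and partners related to Acp1, with Cugbp1 siRNA above Mbnl1 siRNA in each list, filled where called by limma and open where not. The dashed lines mark Acp1 at 1.01 and 1.05, to the right of every gene shown.

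Of the classical tyrosine phosphatases, 35 of 38 had a gene value: 11 rose and 9 fell after Cugbp1 siRNA, and 12 rose and 7 fell after Mbnl1 siRNA. With the gene values of each array centred on their median, 6 rose and 12 fell after Cugbp1 siRNA, and 10 rose and 12 fell after Mbnl1 siRNA. With quantile normalisation repeated, the counts were 9 and 11 after Cugbp1 siRNA and 10 and 9 after Mbnl1 siRNA, and with arrays centred on their median 15 and 8 after Cugbp1 siRNA. The uncentred shares of all genes were 26% higher and 12.7% lower after Cugbp1 siRNA, and 26.9% higher and 14.6% lower after Mbnl1 siRNA. The balance of directions in the class thus depended on the scaling, as it did over all genes. With centred gene values 1679 genes rose and 2839 fell after Cugbp1 siRNA, and 2201 and 3200 after Mbnl1 siRNA. Uncentred, these counts were 3293 and 1600, and 3397 and 1848. Without Cugbp1 siRNA replicate 3, 7 classical members rose after Cugbp1 siRNA.

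Among 16 non-receptor members, 6 rose and 4 fell after Cugbp1 siRNA, and 4 rose and 3 fell after Mbnl1 siRNA, against 2 and 5, and 3 and 5, with centred gene values, and 4 and 5, and 3 and 5, with quantile normalisation repeated. Without centring, 26% of all genes rose and 12.7% fell after Cugbp1 siRNA, and 26.9% rose and 14.6% fell after Mbnl1 siRNA. Ptpn13, a large phosphatase with FERM and PDZ domains, rose by 0.33 after Cugbp1 siRNA (adjusted p = 0.00210) and by 0.54 after Mbnl1 siRNA (adjusted p = 0.000120). Ptpn2, which acts on JAK and STAT proteins, rose by 0.31 and 0.20 (adjusted p = 0.00320 and 0.0214), and Ptpn12, which acts on the adhesion adaptor p130Cas, by 0.17 and 0.25. Ptpn3, with FERM and PDZ domains, rose by 0.13 and 0.26, and Ptpn4, its close relative, rose by 0.21 after Cugbp1 siRNA and differed by 0.04 after Mbnl1 siRNA. The calls of Ptpn3 and Ptpn4 after Cugbp1 siRNA were kept under 4 and 6 of 18 settings. Ptpn5, known as the striatum-enriched phosphatase, fell by 0.19 and 0.27, Ptpn6, the blood cell phosphatase SHP-1, by 0.27 and 0.30, and Ptpn18 by 0.31 and 0.32. Ptpn22, a lymphoid phosphatase, fell by 0.27 after Cugbp1 siRNA (adjusted p = 0.0239) and differed by 0.04 after Mbnl1 siRNA (adjusted p = 0.686).

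Among 19 receptor-type members, 5 rose and 5 fell after Cugbp1 siRNA, and 8 rose and 4 fell after Mbnl1 siRNA. The counts were 4 and 7, and 7 and 7, with centred gene values, and 8 and 4 after Cugbp1 siRNA with arrays centred on their median. The uncentred shares of all genes were 26% higher and 12.7% lower after Cugbp1 siRNA, and 26.9% higher and 14.6% lower after Mbnl1 siRNA. Ptprd, of the LAR family of adhesion phosphatases, rose by 0.42 after Cugbp1 siRNA (adjusted p = 0.000284) and by 0.49 after Mbnl1 siRNA (adjusted p = 5.96e-05). Ptpre rose by 0.35 and 0.41, Ptprg, with a carbonic anhydrase-like domain, by 0.29 and 0.24, and Ptprm, a homophilic adhesion phosphatase, by 0.18 and 0.28. Ptprn, an enzymatically inactive protein of secretory granules, was at 8.14, 8.14 and 8.12 after Cugbp1 siRNA, 7.45, 7.55 and 7.70 after Mbnl1 siRNA, and 7.69, 7.79 and 7.60 after control siRNA. It rose by 0.44 after Cugbp1 siRNA (adjusted p = 0.00118) and was not called after Mbnl1 siRNA (−0.13, adjusted p = 0.152). The siRNAs differed by 0.57 (Cugbp1 minus Mbnl1, adjusted p = 0.000700). Ptprv, which is expressed in bone, rose by 0.37 after Mbnl1 siRNA and differed by 0.11 after Cugbp1 siRNA. Ptprb, the vascular endothelial phosphatase, fell by 0.33 and 0.43, Ptpru by 0.33 and 0.34, Ptprn2 by 0.28 and 0.27, and Ptprh by 0.50 and 0.52, the last with calls kept under 7 and 11 of 18 settings.

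Of the 10 MAP kinase phosphatases, 3 rose and 1 fell after Cugbp1 siRNA, and 3 rose and 0 fell after Mbnl1 siRNA, against 0 and 3, and 2 and 5, with centred gene values, and 2 and 2, and 2 and 1, with quantile normalisation repeated. Without centring, 26% of all genes rose and 12.7% fell after Cugbp1 siRNA, and 26.9% rose and 14.6% fell after Mbnl1 siRNA. Dusp6, the cytoplasmic phosphatase of ERK, rose by 0.20 after Cugbp1 siRNA (adjusted p = 0.0165) and by 0.48 after Mbnl1 siRNA (adjusted p = 0.000158). For Dusp6 the siRNAs differed by −0.28 (Cugbp1 minus Mbnl1, adjusted p = 0.00888). Dusp10, which acts on p38 and JNK, rose by 0.19 and 0.22, and Dusp16, which acts on JNK, by 0.16 and 0.18, the last with calls kept under 7 and 10 of 18 settings. Dusp8 fell by 0.36 after Cugbp1 siRNA (adjusted p = 0.00107) and differed by −0.11 after Mbnl1 siRNA. Dusp1 (−0.00 and −0.13), Dusp2 (−0.07 and 0.10), Dusp4 (0.11 and −0.10), Dusp5 (−0.10 and −0.12), Dusp7 (0.01 and 0.03) and Dusp9 (−0.13 and −0.08) were not called against control.

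Of 20 other dual-specificity phosphatases measured, 8 rose and 0 fell after Cugbp1 siRNA, and 6 rose and 3 fell after Mbnl1 siRNA, against 2 and 4, and 4 and 4, with centred gene values. With quantile normalisation repeated, 3 rose and 1 fell after Cugbp1 siRNA, and with arrays centred on their median 8 rose and 2 fell after Mbnl1 siRNA. The uncentred shares of all genes were 26% higher and 12.7% lower after Cugbp1 siRNA, and 26.9% higher and 14.6% lower after Mbnl1 siRNA. Rngtt, the mRNA capping enzyme, rose by 0.48 and 0.46 (adjusted p = 0.000536 and 0.000362), which no setting removed among 18. Dusp3, a small phosphatase of ERK and JNK, rose by 0.44 and 0.31, but had the opposite sign with the gene value taken as a median. Dusp22 was at 8.75, 8.82 and 8.86 after Cugbp1 siRNA, 9.24, 9.12 and 9.18 after Mbnl1 siRNA, and 8.89, 8.97 and 8.89 after control siRNA. It rose by 0.26 after Mbnl1 siRNA (adjusted p = 0.00239), was not called after Cugbp1 siRNA (−0.10), and was called between the siRNAs (−0.37, adjusted p = 0.00159). After Mbnl1 siRNA, Ptp4a1 of the membrane-bound PRL phosphatases rose by 0.51 and Ptp4a3 of the same group fell by 0.25. The cofilin phosphatase genes Ssh2 (0.19 and 0.09) and Ssh3 (−0.11 and −0.15), Cdc14b (0.18 and 0.18) and Dusp28 (−0.17 and −0.22) were each called for at least 1 siRNA, Ssh2 and Cdc14b higher, Ssh3 and Dusp28 lower, and each call was lost under some settings.

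Of 8 CDC25, EYA and SSU72 phosphatases, 2 rose and 1 fell after Cugbp1 siRNA, and 1 rose and 3 fell after Mbnl1 siRNA, against 0 and 3, and 1 and 4, with centred gene values, 0 and 1, and 1 and 4, with quantile normalisation repeated, and 3 and 0, and 3 and 2, with arrays centred on their median. Without centring, 26% of all genes rose and 12.7% fell after Cugbp1 siRNA, and 26.9% rose and 14.6% fell after Mbnl1 siRNA. SSU72, which acts on RNA polymerase II, is the protein in this set closest to Acp1 in fold, and Ssu72 was not called (0.00 and 0.10, adjusted p = 0.974 and 0.101). Cdc25a, which activates cyclin-dependent kinases, fell by 0.27 after Mbnl1 siRNA (adjusted p = 0.000716) and differed by −0.03 after Cugbp1 siRNA. Eya4, a transcription cofactor with a phosphatase domain, rose by 0.16 and 0.36, and its relative Eya2 fell by 0.17 and 0.32, with the Cugbp1 siRNA calls kept under 5 of 18 settings for Eya4 and 7 of 18 for Eya2. Eya1 (0.00 and −0.13) was called lower after Mbnl1 siRNA and Cdc25c (0.14 and 0.07) higher after Cugbp1 siRNA, calls kept under 6 and 10 of 18 settings. Cdc25b (−0.06 and −0.09) and Eya3 (0.07 and 0.07) were not called.

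The genes that share the acid phosphatase name with Acp1 encode unrelated enzymes, mostly of lysosomes and secretion. Of 7, 5 had a gene value: 3 rose and 1 fell after either siRNA. Of all genes, 26% rose and 12.7% fell after Cugbp1 siRNA, and 26.9% rose and 14.6% fell after Mbnl1 siRNA. Pxylp1, which removes phosphate from xylose during proteoglycan synthesis, was at 7.65, 7.52 and 7.72 after Cugbp1 siRNA, 7.51, 7.65 and 7.75 after Mbnl1 siRNA, and 7.13, 7.04 and 7.10 after control siRNA. It rose by 0.54 and 0.55 (adjusted p = 0.000608 and 0.000339), and the siRNAs differed by −0.01 (Cugbp1 minus Mbnl1, 95% interval −0.16 to 0.15). Acp2, the lysosomal enzyme, rose by 0.25 and 0.29 (adjusted p = 0.00723 and 0.00275). Acpp, the prostatic acid phosphatase, was at 7.33, 7.69 and 7.69 after Cugbp1 siRNA, 8.28, 8.32 and 8.50 after Mbnl1 siRNA, and 7.57, 7.75 and 7.52 after control siRNA. It rose by 0.75 after Mbnl1 siRNA (adjusted p = 0.000511), differed by −0.05 after Cugbp1 siRNA (adjusted p = 0.734), and was called between the siRNAs (−0.80, adjusted p = 0.00129). Acp6, which acts on lysophosphatidic acid, rose by 0.22 after Cugbp1 siRNA (adjusted p = 0.0354, kept under 11 of 18 settings) and differed by 0.11 after Mbnl1 siRNA, and Acp4 fell by 0.40 and 0.27.

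The 12 genes listed for reported substrates of the enzyme were all measured, and 6 rose and 1 fell after Cugbp1 siRNA, while 4 rose and 3 fell after Mbnl1 siRNA. The shares of all genes called were 26% higher and 12.7% lower after Cugbp1 siRNA, and 26.9% and 14.6% after Mbnl1 siRNA. The median differences of the 12 genes were 0.14 and −0.00, against 0.05 and 0.04 over all genes. With centred gene values the counts were 4 and 1 after Cugbp1 siRNA and 3 and 4 after Mbnl1 siRNA, and with quantile normalisation repeated also 3 and 4 after Mbnl1 siRNA. The growth factor receptor genes Pdgfrb (0.47 and 0.36, adjusted p = 0.000340 and 0.000811), Egfr (0.27 and 0.44, adjusted p = 0.00823 and 0.000583) and Insr (0.25 and 0.29, adjusted p = 0.00418 and 0.00130) rose after both siRNAs. Ptk2, the focal adhesion kinase gene, rose by 0.14 and 0.15, with calls kept under 8 and 11 of 18 settings, and Stat5b, a cytokine-activated transcription factor, rose by 0.21 after Cugbp1 siRNA and differed by 0.05 after Mbnl1 siRNA. The Eph receptor Ephb1 fell by 0.30 and 0.49 (adjusted p = 0.0326 and 0.00336), and Epha2 differed by 0.02 after Cugbp1 siRNA and fell by 0.21 after Mbnl1 siRNA. Cav1, the caveolar coat protein, rose by 0.14 after Cugbp1 siRNA (kept under 5 of 18 settings) and fell by 0.19 after Mbnl1 siRNA, and the siRNAs differed by 0.33 (adjusted p = 0.00196). Ctnnb1 (0.16 and −0.00), Arhgap35 (0.05 and −0.01), Stat5a (0.08 and −0.10) and Zap70 (−0.10 and −0.10) were not called against control.

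Of the 8 Src family kinases, which phosphorylate Acp1, 3 had a gene value. Fyn rose by 0.38 after Mbnl1 siRNA (adjusted p = 0.00203), differed by 0.05 after Cugbp1 siRNA and was called between the siRNAs (−0.33, adjusted p = 0.0147). Src (−0.00 and 0.02) and Yes1 (0.16 and −0.04) were not called. The human red cell form of Acp1 hydrolyses flavin mononucleotide, and of 4 flavin metabolism genes 2 were measured. Rfk, riboflavin kinase, rose by 0.17 after Mbnl1 siRNA (adjusted p = 0.00889) and differed by 0.06 after Cugbp1 siRNA, and Flad1, FAD synthase, was not called (0.04 and 0.04).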

How the data were processed

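The authors deposited a table of linear intensity values for 1195555 probe sets on 9 exon arrays, made with RMA in Affymetrix Expression Console on genome build mm9, per the submitters' processing notes. Neither software versions nor the background setting are stated there. Arrays have no sequencing depth, and precision is limited by the number of arrays.

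Intensities were log2-transformed. Probe sets were named where the platform annotation gave 1 symbol (316997 probe sets), with symbols updated through a RefSeq table (GRCm38.p6). Probe sets with a mean over 9 arrays at or above the 75th percentile (intensity 128) were kept. A gene value is the Tukey median polish of at least 3 kept probe sets (12646 genes). The fit used R 4.3.3 with the packages data.table (version 1.17.8) and limma (version 3.58.1), with 3 group means, eBayes and Benjamini-Hochberg adjustment over all genes, and called at an adjusted p under 0.05. Exon use was tested on probe set minus gene value, in genes with at least 4 kept probe sets. The fits were tested on simulated data with independent noise for each probe set and no general shift of the siRNA arrays. That test cannot vouch for the calls in these data.

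The gene, its lists and the naming rule (lists of up to 12 measured genes in full, otherwise up to 4 called genes per direction and siRNA with the largest difference; the 8 nearest genes; measured neighbours) were chosen with earlier results of these data known. The 18 alternative settings covered scaling (3), the filter (2), the gene value (2), moderation, a replicate block and leaving out each of the 9 arrays. One of them, centring the gene values of each array on their median, was chosen after seeing the data.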

Additional observations from a re-analysis of the deposited data

Results flagged for a closer look

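For 17 of the genes named above or in the marker lists, the response to the siRNAs differed by limma's test of Cugbp1 siRNA minus Mbnl1 siRNA. The test was adjusted over all genes, of which 9.34% were called. Genes of the longer lists were named for their largest called changes against control, and the nearest genes for likeness to Acp1. The count of 17 therefore cannot be set against that share. Higher after Cugbp1 siRNA were Ptprn (0.57, adjusted p = 0.000700), Cav1 (0.33, 0.00196), Cdh15 (0.30, 0.0213), Nmnat2 (0.28, 0.0156), Cdc25a (0.24, 0.00497), Epha2 (0.23, 0.0310), Dusp4 (0.21, 0.0336), Stat5a (0.18, 0.0337) and Stat5b (0.16, 0.0379). Lower after Cugbp1 siRNA were Acpp (−0.80, 0.00129), Dusp22 (−0.37, 0.00159), Fyn (−0.33, 0.0147), Ptpn22 (−0.31, 0.0360), Dusp6 (−0.28, 0.00888), Ptprv (−0.26, 0.0116), Dusp8 (−0.25, 0.0165) and Krt14 (−0.25, 0.0277). Of these, Acpp, Cdc25a, Dusp22 and Ptprn kept the call under all 18 alternative settings, while Dusp4, Stat5a and Stat5b kept it under 7 and Epha2 under 8.

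The Acp1 probe sets 4423510 and 5487313 are too weak to enter the gene value, yet all 6 siRNA arrays lay above all 3 controls, by 2.47 for 4423510 and by 0.47 for 5487313 after Mbnl1 siRNA.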

How the results depend on the processing

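Acp1 stayed higher than control after both siRNAs under every setting tried. After Cugbp1 and Mbnl1 siRNA the difference was 0.99 and 1.03 with quantile normalisation repeated, 1.05 and 1.09 with arrays centred on their median, 0.86 and 0.94 without the filter, 0.94 and 0.99 with the filter at the median, 1.03 and 1.08 with the gene value as a mean, 1.22 and 1.41 as a median, and 0.93 and 0.98 with centred gene values. Between the siRNAs it was −0.081 without the filter and −0.19 with the gene value as a median. Leaving out each array gave 0.99 to 1.06 after Cugbp1 siRNA, 1.03 to 1.09 after Mbnl1 siRNA and −0.056 to −0.019 between them. Deviations from the group mean had correlations of −0.10 to 0.12 between same-numbered replicates and −0.13 to 0.09 between replicates of different number. With 3 arrays per group these values cannot settle whether the numbers pair the samples. With a replicate block the Acp1 differences were 1.01, 1.05 and −0.04, and 369 genes were higher and 506 lower between the siRNAs (540 and 641 without it).

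Classical tyrosine phosphatases called higher after Cugbp1 siRNA numbered 7 with the gene value as a median and 6 with centred gene values, and those called lower 3 without the filter and 4 with the median. After Mbnl1 siRNA those called lower numbered 4 with the median and 12 with centred gene values. Leaving out each array gave 7 to 14 higher and 6 to 9 lower after Cugbp1 siRNA, and 10 to 13 higher and 5 to 9 lower after Mbnl1 siRNA. With the replicate block they were 9 and 8 after Cugbp1 siRNA, and 11 and 6 after Mbnl1 siRNA. With the gene value as a median, Ptpn6 (0.054) and Dusp3 (−0.21) after Cugbp1 siRNA, Dusp3 (−0.34) after Mbnl1 siRNA, and Ssu72 after both (−0.26 and −0.25) changed sign, and the cause was not tested. Exon use of Acp1 gave 0 calls under each setting run for it, with 0 to 3 probe sets at an unadjusted p under 0.05. The gene value as a mean and the other moderation were not run for exon use.

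Over all genes, 1679 rose and 2839 fell after Cugbp1 siRNA and 2201 rose and 3200 fell after Mbnl1 siRNA with centred gene values, against 3293 and 1600, and 3397 and 1848. With arrays centred on their median, the counts were 4398 and 1230, and 4232 and 1433, and with quantile normalisation repeated 2600 and 1831, and 2795 and 2282. With the gene value as a median, 1061 fell after Cugbp1 siRNA, and 169 rose and 305 fell between the siRNAs. Without the filter, 260 rose and 379 fell between them, and with the filter at the median 349 rose. Leaving out 1 array gave 227 to 627 higher and 359 to 666 lower between the siRNAs, with the fewest higher calls without Mbnl1 siRNA replicate 2 (227), Mbnl1 siRNA replicate 1 (279), Cugbp1 siRNA replicate 2 (287) and Mbnl1 siRNA replicate 3 (312). Of the named calls, 27 of 58 after Cugbp1 siRNA, 35 of 61 after Mbnl1 siRNA and 6 of 19 between the siRNAs were kept under all 18 settings.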
